A study of Mus musculus with 30 samples.

Results

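Among 5874 protein-coding autosomal genes with enough allele-assigned counts, 24 (0.409%) were read almost only from the Cast genome in XX wild type mESCs. A gene was a member when it lies on an autosome other than 5, 8 or 12, had at least 100 counts assigned to an allele over both XX wild type libraries, and had at least 90% of these counts on Cast in each of the 2 libraries. The members were thus chosen by their Cast shares and allelic counts in XX wild type, and these values are given as a description, without a test. The same rule for the other allele found 45 genes read almost only from 129.

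All cells were female mESCs of 1 cross, 129/Sv x Cast/Ei, which gives each autosomal gene a 129 and a Cast copy where no copy was gained or lost. Copy number was not measured here, and the rule leaves out chromosomes 5, 8 and 12. The 30 libraries covered 17 conditions: XX wild type (2 libraries), XX Rnf12+/- (2 libraries, Rnf12 deleted on the 129 X), the XO lines XCastO129 and X129OCast (2 libraries each), and 13 lines with a deletion on the X chromosome. Deletion lines A, B, AB and C-G were 1 clone each and C, D, E, F, H, I, I-TEL, J and K were 2 clones each, all derived from Rnf12+/- cells and with the neomycin cassette retained; I-TEL and J came from a second Rnf12+/- line. Replicates of the XX reference, which was Rnf12+/-, and of XCastO129 and deletion cells were independent clones by the description of the study. It does not say so for XX wild type and X129OCast, where the spread may be technical. The XO lines had lost a whole X chromosome during the targeting. Rnf12, on the X, was at 549 and 519 CPM (counts scaled to library size) in XX wild type, 205 and 214 in Rnf12+/-, 196 and 213 in XCastO129, and 9.70 and 9.60 in X129OCast, with 0 Cast counts in X129OCast, so that the XO lines differ in Rnf12 as well as in the X they keep. The 26 libraries of XX and deletion cells were read as pairs of 50 bases in batches of 6 (XX wild type, Rnf12+/- and deletion E) and 20 (the other deletion lines) libraries by library name, whereas the 4 XO libraries were a batch of their own read as single reads of 50 bases. In these 4 libraries the missing X chromosome cannot be told apart from the library batch or from the read type. Libraries held 8815980 to 21180709 counts, of which an allele was known for 12.18 to 12.7% in the paired-read libraries and for 21.9 to 22.0% in the XO libraries. Summed levels of 9 mESC markers were 9286 to 15506 TPM (a level per exon length, with 1 common total for all libraries) in the 30 libraries. Those of 10 fibroblast markers, which mark the feeder layer the cells grow on, were 99.1 to 369 TPM, of 6 trophoblast markers 93.7 to 336 TPM, of 6 primitive endoderm markers 11.1 to 29.97 TPM, and of 5 markers of cells like the early embryo at most 16.1 TPM.

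In a hybrid of subspecies, a read is given to a chromosome when it covers a base that differs between the parental genomes. Imprinted genes are the textbook case of genes read from 1 parental chromosome. Processed pseudogenes are intronless copies of an mRNA that were inserted elsewhere in the genome, and genes for abundant housekeeping proteins such as ribosomal proteins, chaperones and actins are known for having many of them. Reads from such a gene and from its pseudogenes can be hard to tell apart.

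How close these copies are to the genes is shown by the coding sequence of 5 members next to a pseudogene that matches them, in the GRCm38 reference, which is neither the 129 nor the Cast genome. Sequences run 5′ to 3′ on the strand of the transcript, and capitals mark the bases that differ within the 90 bases shown. The coding sequence of Fau, whose protein joins a ubiquitin-like domain to a protein of the small ribosomal subunit, is the same as that of the processed pseudogene Gm9843 (chr16:76403251-76403652) over all of its 399 aligned bases, so that 1 line stands for both. Gm15466 (chr3:8882238-8882570) differs from Ptma, which codes for the acidic nuclear protein prothymosin alpha, at 14 of 333 bases. Rpl36-ps12 (chr6:108140120-108140509) differs from Rpl36 of the large ribosomal subunit at 3 of 315 bases. Gm10074 (chr17:36226023-36226271) differs at 2 of 249 bases from Lsm5, a subunit of the LSm ring that binds U6 RNA. Gstp-ps (chr1:192073820-192074450) differs at 5 of 628 bases from Gstp2, a glutathione S-transferase. The coding sequences of Rps6, Mrpl23, Rps12, Rpl38 and Timm23 also matched a pseudogene without a difference and are not shown. Except for Fau, the pairs shown are less alike than these.
Fau and Gm9843: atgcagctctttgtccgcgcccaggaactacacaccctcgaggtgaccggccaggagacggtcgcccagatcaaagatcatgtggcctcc
Ptma: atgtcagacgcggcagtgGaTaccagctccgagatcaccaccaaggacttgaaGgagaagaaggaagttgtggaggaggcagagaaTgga
Gm15466: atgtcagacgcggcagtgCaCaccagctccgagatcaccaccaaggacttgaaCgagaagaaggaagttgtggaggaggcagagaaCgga
Rpl36: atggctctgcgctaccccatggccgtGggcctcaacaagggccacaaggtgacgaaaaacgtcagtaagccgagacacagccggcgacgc
Rpl36-ps12: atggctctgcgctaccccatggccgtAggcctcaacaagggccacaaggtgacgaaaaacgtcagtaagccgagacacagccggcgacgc
Lsm5: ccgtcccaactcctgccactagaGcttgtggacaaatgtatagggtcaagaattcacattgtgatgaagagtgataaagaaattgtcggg
Gm10074: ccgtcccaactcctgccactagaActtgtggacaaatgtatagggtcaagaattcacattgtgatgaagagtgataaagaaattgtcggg
Gstp2: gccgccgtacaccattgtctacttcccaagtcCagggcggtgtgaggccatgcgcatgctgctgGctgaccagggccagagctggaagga
Gstp-ps: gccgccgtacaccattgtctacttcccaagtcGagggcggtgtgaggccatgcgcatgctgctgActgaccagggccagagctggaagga

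The 24 genes lie on 11 chromosomes, and code for proteins of many cellular processes. Rpl34, Rpl36, Rpl38, Rps6 and Rps12 code for ribosomal proteins, and Mrpl23 for a protein of the mitochondrial ribosome. The first 5 were among 58 genes with enough counts whose names begin like those of ribosomal proteins (8.62%), beside 0.409% of all 5874 genes. That list was made by name alone and leaves out Fau. Hspa8 and Hspd1 code for the constitutive cytosolic chaperone of the HSP70 family and for the mitochondrial chaperonin. Sec61g and Timm23 code for parts of the protein channels of the endoplasmic reticulum and of the mitochondrial inner membrane. Polr2l is a small subunit shared by the nuclear RNA polymerases, Rnps1 an RNA-binding protein of the exon junction complex, and Sinhcaf a protein of the SIN3 histone deacetylase complex. Actg1 codes for gamma actin, Ncoa4 for the receptor that brings ferritin to autophagy, and Ublcp1 for a phosphatase of the proteasome. The more specialised genes were Fcgr3 (a receptor for IgG), P4ha3 (a subunit of the collagen prolyl hydroxylase), Tbc1d4 (a Rab GTPase-activating protein of glucose transporter traffic) and Pxt1 (a peroxisomal protein known from testis). None of the 13 paternally and 12 maternally expressed imprinted genes with enough counts was a member. Nor was any of 5 genes of antigen processing, 4 interferon genes and 124 zinc finger genes. As 0.409% of all 5874 genes were members, 0 members in lists of this size is near that share. Gstp2 was 1 of 10 genes of glutathione and drug metabolism.

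In XX wild type, Rpl36 had 99.1 and 99.4% Cast with 16 of 2178 allelic counts on 129, and Rpl38 had 99.3 and 99.2% with 12 of 1609. Lsm5 had 100 and 96.8%, and Ptma 98.96 and 98.97% Cast. Hspa8 was covered most deeply, with 14640 allelic counts and 98.4 and 98.2% Cast. The genes just inside the threshold were Sec61g (90.4 and 91.4%), Tbc1d4 (90.9 and 91.0%), Rnps1 (91.2 and 91.0%), Fcgr3 (91.1 and 95.7%) and Hspd1 (91.1 and 92.0%). Just outside it were Lyrm7 (89.3 and 92.6%), Hnrnpa1 (89.2 and 89.7%), Oser1 (89.1 and 91.3%), Morf4l1 (89.8 and 87.7%) and Platr25 (90.3 and 87.5%).

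The one-sided reads did not extend to the genes around the members. The other genes within 1 Mb of each member had a median Cast share between 40.2 and 61.2% in XX wild type, and 22 of 24 members had no neighbour at or over 90%. The exception was a pair, Ncoa4 (chr14:32159865-32179855) and Timm23 (chr14:32180162-32201898), which lie 307 bases apart and were both members. The gene overlapping Hspd1 on chromosome 1 is Hspe1, which codes for the co-chaperonin of Hspd1 and has 4 pseudogene matches of its own. Its reads went the other way, with 10.3 and 9.67% Cast in XX wild type, 6.35 to 15.7% in the other paired-read libraries and 32.3 to 35.4% in XO.

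**Figure D1:**
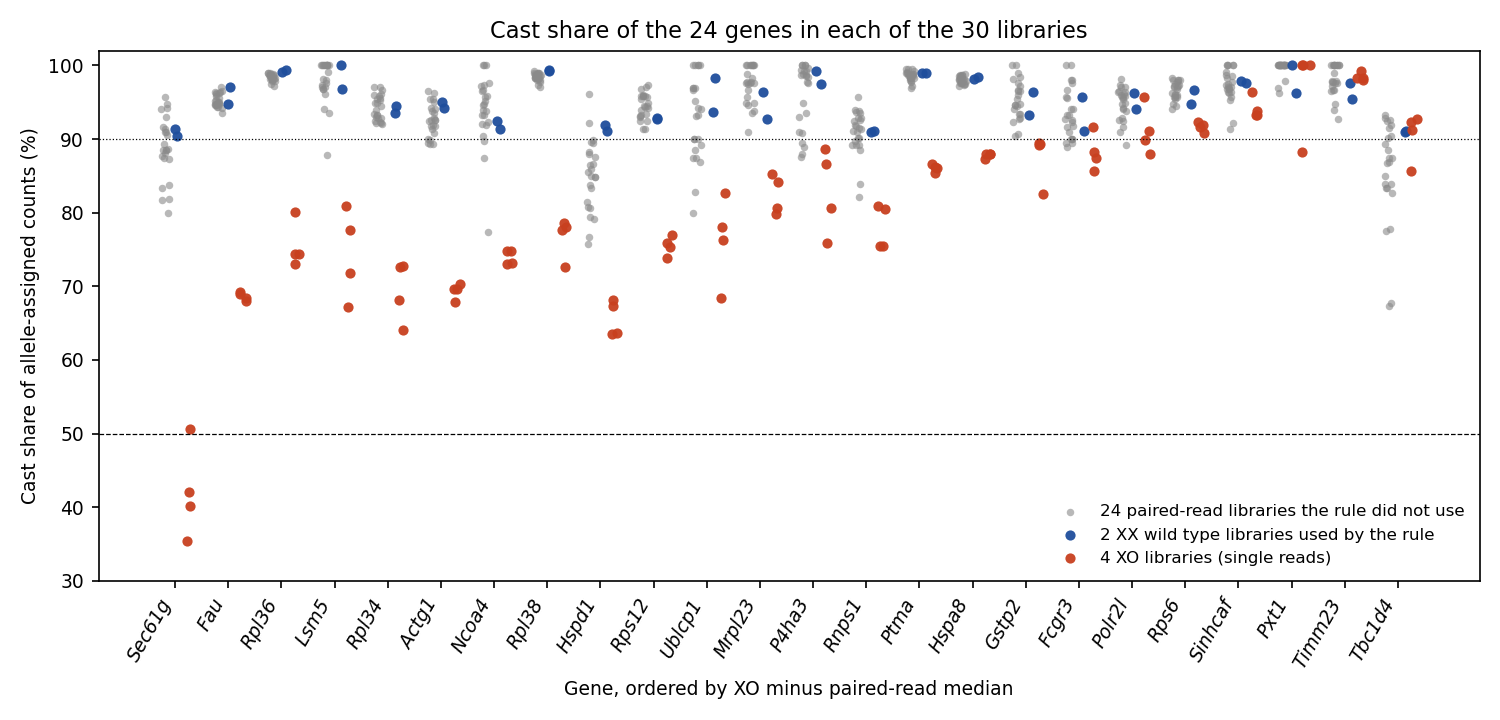
The y axis gives the percentage of allele-assigned counts on Cast and the x axis the 24 genes, ordered by the difference of their medians. Each point is 1 library: grey for the 24 paired-read libraries the rule did not use, blue for XX wild type and red for XO. The dotted line marks 90% and the dashed line 50%; for 16 genes all red points lie below all grey points.

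The one-sided reads returned in the paired-read libraries that did not choose the genes. In the 2 XX Rnf12+/- libraries, all 24 genes had more Cast than 129 counts, with edgeR adjusted p at most 4.65e-09 (Ublcp1) and with DESeq2 for 23 of them (Pxt1 at an adjusted p of 0.0791), beside a background of 8.4% of 12801 genes called in this direction. The log2 ratio of Cast to 129 counts ranged from 2.64 for Hspd1 to 6.54 for Rpl38. Over the 24 paired-read libraries of Rnf12+/- and deletion cells, the median share of the 24 genes was 94.6 to 98.3% per library, and 19 to 22 of them were at or over 90%. All libraries were at or over 90% for 13 genes, and no gene fell to 50% in any of the 24.

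The spread between these libraries differed by gene and depth. Hspa8 went from 97.2 through a median of 98.1 to 98.8% with at least 2408 allelic counts in each. Hspd1 went from 75.8 through 85.3 to 96.2% with 33 to 207 allelic counts in each. Its lowest value, in deletion A, rested on 33 counts and had a 95% Wilson interval of 59.0 to 87.2%. Tbc1d4 fell lowest, to 67.3% in deletion D clone 2 (49 allelic counts, Wilson interval 53.4 to 78.8%) against a median of 87.2%. These intervals cover counting error only.

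In the XO libraries most of the genes had a lower Cast share, though 23 of 24 stayed over 50% in every XO library. The median share of the 24 genes was 79.3 to 81.7% per XO library, and 4 to 6 genes stayed at or over 90%. For 16 of 24 genes every XO library was below every one of the 24 paired-read libraries, beside 1.04% of the 5869 genes of the scope with allelic counts in all of these libraries, and no member was above. The median difference, paired minus XO, was 15.1 percentage points over the members and -0.186 over the scope. For the 45 genes read almost only from 129, all XO libraries were above all 24 paired-read libraries in 11 (24.4%) and below in 0. The median difference of these genes was -2.70 points.

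In percentage points Sec61g had the largest difference of medians among the members, 47.5. Its Cast share was 35.5 and 40.1% in XCastO129 and 42.0 and 50.6% in X129OCast, against 80.0 to 95.7% (median 88.6%) in the 24 paired-read libraries. It was the 1 member with an XO median below 50%, and its groups did not overlap. Fau had 69.3 and 69.0% in XCastO129 and 68.4 and 68.0% in X129OCast, against 93.5 to 97.1% (median 95.02%) in paired reads. Its 4 XO values lie close together and apart from the others. Actg1 had 67.9 and 69.6% in XCastO129 and 69.7 and 70.3% in X129OCast, against 89.3 to 96.6% (median 92.6%).

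The ribosomal protein genes fell by different amounts. Rpl36 had 80.1 and 74.4% in XCastO129 and 74.4 and 73.0% in X129OCast, against 97.2 to 98.97% in paired reads. Rps6 had 91.9 and 90.8% in XCastO129 and 91.7 and 92.3% in X129OCast, against 94.1 to 98.3%. Both sets of groups were apart, yet Rps6 stayed over 90%. Of the chaperones, Hspa8 had 88.0 and 88.0% in XCastO129 and 87.3 and 88.0% in X129OCast. Hspd1 had 63.7 and 63.6%, then 68.1 and 67.3%.

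Other genes did not move this way. Timm23 had 99.2 and 98.3% in XCastO129 and 98.2 and 98.1% in X129OCast, inside its paired-read range of 92.8 to 100%.  Tbc1d4 had 91.3, 92.3, 85.7 and 92.8%, inside a range of 67.3 to 93.3%. Pxt1 had 1 XO library at 88.2% (51 allelic counts, 95% Wilson interval 76.6 to 94.5%) and 3 at 100%. For these 3 genes the XO and paired-read groups overlapped. Ncoa4, the neighbour of Timm23, differed from it, with 73.2 and 74.8% in XCastO129 and 73.1 and 74.9% in X129OCast, below its paired-read range of 77.4 to 100%.

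The remaining members lay between these cases. Ptma had 86.2 and 86.0% in XCastO129 and 86.6 and 85.4% in X129OCast, against 96.9 to 99.6% in paired reads. Rpl38 had 72.6, 78.1, 77.7 and 78.6% in the same order, against 97.1 to 99.2%. Rpl34 had 72.6, 72.7, 68.1 and 64.1%, against 92.1 to 97.1%. All 3 genes were below 90% in every XO library and apart from the paired-read libraries. Rps12 had 76.9, 73.9, 75.9 and 75.4%, against 91.4 to 97.4%. Rnps1 had 80.4, 80.9, 75.5 and 75.5%, against 82.2 to 95.8%. Lsm5 had 77.6, 67.2, 80.9 and 71.8% on 39 to 76 allelic counts, against 87.9 to 100%. Their groups were apart as well, as were those of Mrpl23 (79.8 to 85.3% in XO) and Gstp2 (82.5 to 89.4%). The groups overlapped for Ublcp1 (68.4 to 82.7%), Polr2l (88.0 to 95.7%) and Sinhcaf (93.3 to 96.4%), and for P4ha3 and Fcgr3.

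**Figure D2:**
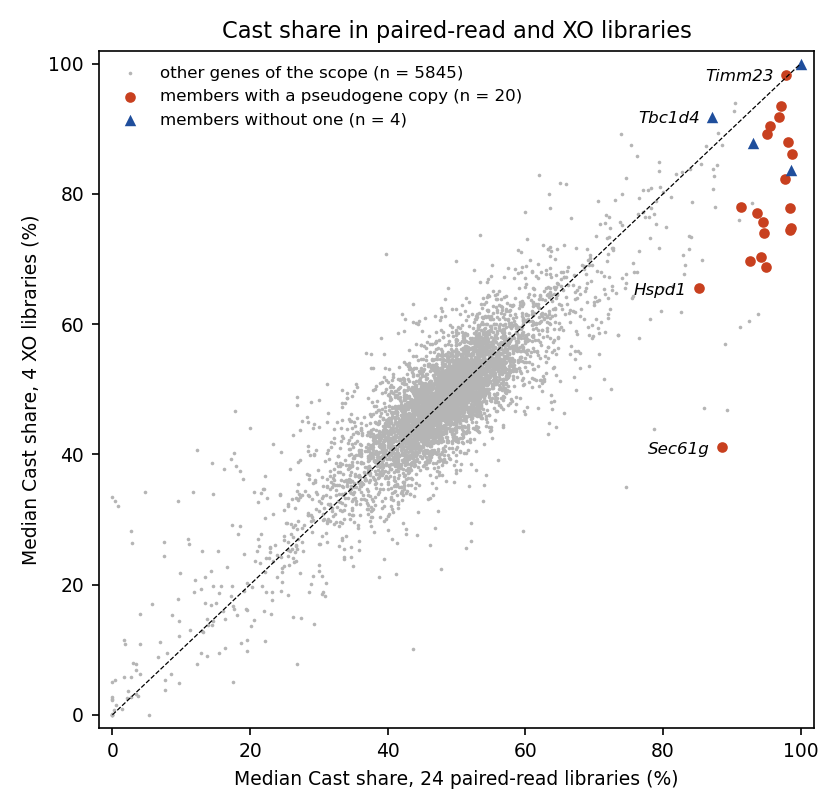
Each point is 1 gene, with its median Cast share in the 24 paired-read libraries on the x axis and in the 4 XO libraries on the y axis, both in percent; the dashed line marks equal shares. Red points are members with a pseudogene copy, blue triangles members without one and grey points the other genes of the scope. Most red points lie below the line, Sec61g lowest at 41.1% against 88.6%.

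Tested by edgeR against the 2 XX Rnf12+/- libraries, which the rule did not use, 15 of 24 members had a lower Cast share in XO and 0 a higher one, beside backgrounds of 2.12% lower and 3.5% higher over 12801 genes. The median log2 change of the Cast to 129 ratio was -1.73 for the members and 0.06 for all genes. It was -4.54 (SE 0.36, edgeR adjusted p = 1.08e-15) for Sec61g and -3.64 (SE 0.13, edgeR adjusted p = 2.27e-31) for Fau. Rpl38 had -4.82, Rpl36 -4.63, Actg1 -3.56 and Ptma -3.47. The calls for Rps6 and Ncoa4 were lost when 1 Rnf12+/- library was left out, at edgeR adjusted p = 0.219 without replicate 2 and 0.253 without replicate 1. The 9 members not called included Timm23 with a log2 change of 0.49 (SE 0.86), Tbc1d4 with 0.09 (SE 0.41) and Sinhcaf with -0.61 (SE 0.56).

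The XO lines differ in the X they keep and in Rnf12, which cannot be told apart. Between X129OCast and XCastO129, 0 of 24 members were called higher and 0 lower in Cast share by edgeR, beside 0.727 and 3.09% of all genes. At an unadjusted p under 0.05 there were 4 members by edgeR and 0 by DESeq2, beside 1384 and 817 of 12801 genes. The difference of log2 ratios was -0.06 (SE 0.12) for Fau, -0.05 (SE 0.13) for Hspa8 and 0.49 (SE 0.28) for Sec61g.

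**Figure D3:**
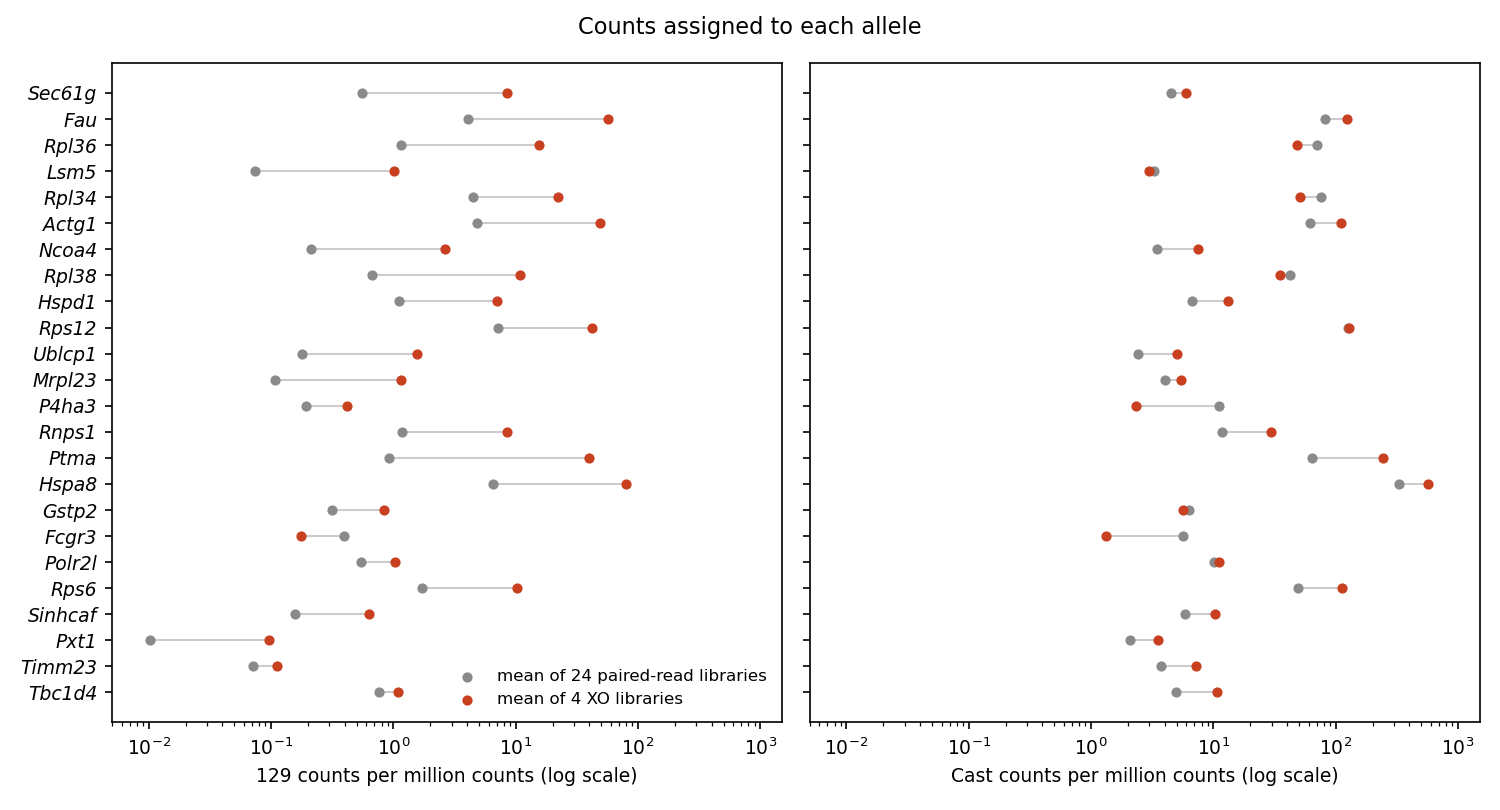
Points give the mean number of 129 counts (left) and Cast counts (right) in CPM on a log axis for each of the 24 genes, grey for the 24 paired-read libraries and red for the 4 XO libraries. The red points lie to the right of the grey ones for 23 genes on the left panel, with Fcgr3 the other way.

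Counts on 129 were higher in XO for nearly all members, while the median change in Cast counts was near that of the scope. Ptma had a mean of 0.920 CPM on 129 in the 24 paired-read libraries and 39.8 in XO. Hspa8 went from 6.56 to 79.2, Fau from 4.08 to 56.7, Actg1 from 4.85 to 48.6 and Sec61g from 0.558 to 8.56. Over the 24 genes the ratio of XO to paired-read means had a median of 7.96 for 129 counts and 1.61 for Cast counts, beside 1.67 and 1.68 over the scope. Single Cast ratios ran from 0.211 to 3.86. They were below 1 for Fcgr3, P4ha3, Rpl34, Rpl36, Rpl38, Lsm5 and Gstp2, and above 1 for the other members. For 16 members all XO libraries were above all 24 paired-read libraries in 129 CPM, beside 40.9% of scope genes. Mean Cast counts of Ptma were 63.6 and 246 CPM in paired-read and XO libraries, and those of Rpl36 69.9 and 47.9 CPM.

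Most members have copies elsewhere in the genome. The coding sequences were compared with the transcripts of all other genes, and a match was at least 50 bases at 90% identity or more. A pseudogene match was found for 20 of 24 members (83.3%), for 1076 of the 5874 genes of the scope (18.3%) and for 16 of the 45 genes read almost only from 129 (35.6%). Matches to 10 or more pseudogenes were found for 8 members (33.3%) and for 1.16% of the scope. These 8 were Rps12 with 22, Ptma with 19, Rps6 with 16, Rpl34 and Actg1 with 15 each, Rpl36 with 13, and Hspa8 and Sec61g with 12 each. Of the 160 pseudogenes, 159 were annotated as processed. An alignment of at least 50 bases with 100% identity was found for Ptma, Rps6, Sinhcaf, Mrpl23, Rps12, Sec61g, Rpl38, Actg1, Ncoa4, Timm23 and Fau.

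**Figure D4:**
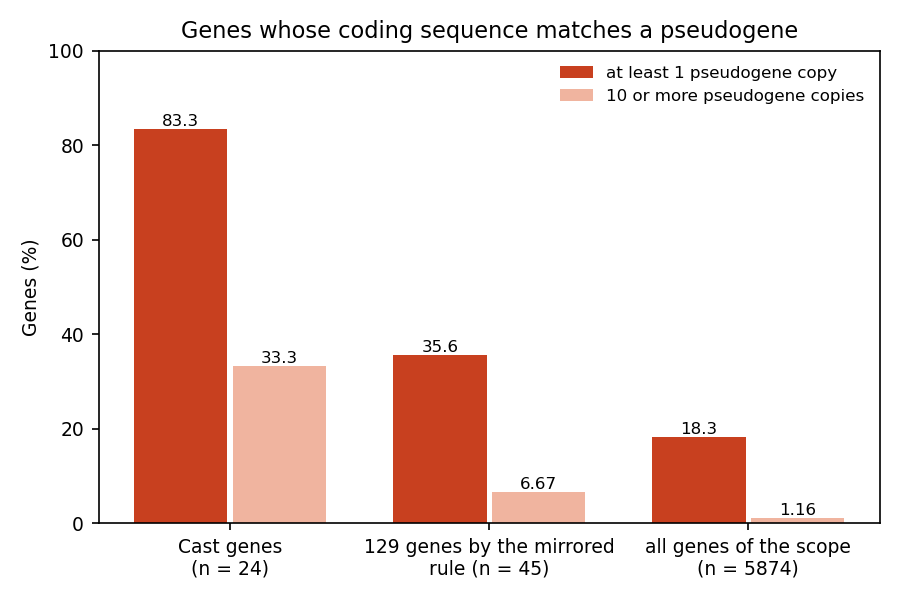
Bars give the percentage of genes whose coding sequence matches at least 1 pseudogene (dark) or 10 or more (light) at 90% identity over 50 bases, from 0 to 100%. At least 1 copy was found for 83.3% of the Cast genes, 35.6% of the genes the mirrored rule gave for 129, and 18.3% of the scope.

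Of the 20 with a pseudogene copy, 15 had medians more than 10 points apart between paired-read and XO libraries, and the median difference was 17.7 points. Of the 4 without, 1 did, and the median difference was 2.59 points. Among the other genes of the scope 11.8% of 1055 with a copy and 4.72% of 4790 without one had medians more than 10 points apart in either direction. The part of the pseudogene copies in the XO shares was not tested.

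Some pseudogenes carried counts from the other allele. Hspd1-ps3 on chromosome 11 had 3.26% Cast of 92 allelic counts in XX wild type and 0.297% of 1010 in XO. Gm16385 on chromosome 16, a copy of Actg1, had 0.916% Cast of 546 counts in XX wild type. Gm8260 on the X chromosome, a copy of Ptma, had 0% of 110 counts, which allows a share of up to 2.73%. Other copies were on the Cast side, such as Rps12-ps24 on chromosome 8 with 98.8% of 80 counts. Summed over the 160 pseudogenes the Cast share was 44.3 and 45.3% in XX wild type, a median of 52.9% in the 24 paired-read libraries and 33.2 to 37.1% in XO. Hspd1-ps3 alone held 1010 of the 4329 allelic counts of this sum in XO. The pseudogenes of single members went both ways between XX wild type and XO. Summed by member, the Cast share rose from 16.3 to 90.4% for Ptma (178 and 146 allelic counts). It rose from 61.5 to 99.1% for Rpl38 (13 and 106 counts). For Hspa8 it fell from 71.4 to 14.9% (112 and 786 counts), and for Actg1 from 38.9 to 20.9% (931 and 1051 counts). Some of the pseudogenes lie on the X chromosome, among them 14 of the 22 copies of Rps12. Others lie on chromosomes 5, 8 and 12, which the rule left out for members.

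Summed over all members, of which Hspa8 alone held 14640 of 41040 allelic counts in XX wild type, the shares with and without pseudogenes were close. The 24 genes alone had 96.3 and 96.6% Cast in XX wild type when their counts were added up, and the genes with their pseudogenes 94.3 and 94.6%. In XO the sums were 80.8 to 81.6% alone and 79.2 to 80.1% together. Single members moved further. With its pseudogenes, Hspd1 had 74.9% Cast in XX wild type, 65.1% over the 24 paired-read libraries and 36.5% in XO, against 91.6% for the gene alone in XX wild type. Actg1 with its pseudogenes had 79.7, 79.1 and 64.8%, against 94.6% alone in XX wild type. Both were then below 90% in XX wild type. In these libraries 0 allelic counts lay on the pseudogenes of Lsm5, Sinhcaf, Mrpl23, Sec61g, Ublcp1, Ncoa4, Timm23, Rnps1, Gstp2 and Fau. Their shares could thus not change there. The remaining members with a copy stayed at or over 90% in XX wild type, where the rule chose them. Many pseudogene counts carried no allele: Gm15459, a copy of Hspa8, had 11880 counts and 0 allelic counts in XX wild type, and Rps6-ps4 had 8243 counts and 0 allelic counts. For Rps6 the pseudogenes together held 101% of the counts of the gene itself, for Gstp2 89.1% and for Ncoa4 87.3%. Counts of a gene and such a copy can have been split between them in the alignment, and the levels below are uncertain to this extent.

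The levels of the 24 genes ranged widely. In XX Rnf12+/-, Rpl36 was highest at 2293 ± 39.3 TPM and Ptma followed at 2237 ± 243 TPM (SD, n = 2 each). Fau (1231 ± 16.5), Rpl38 (1197 ± 165), Hspa8 (1116 ± 71.2), Hspd1 (1001 ± 69.5), Rps12 (916 ± 46.5), Rps6 (620 ± 46.2), Actg1 (512 ± 39.2) and Rpl34 (391 ± 2.80 TPM) came next. The lowest were Mrpl23 at 14.2 ± 3.33 TPM and Ncoa4 at 6.95 ± 0.04 TPM. Together the 24 genes made up 1.18 to 1.38% of the TPM of a paired-read library and 1.39 to 1.52% of that of an XO library.

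In XO against XX Rnf12+/-, 14 of 24 members rose and 4 fell by edgeR, beside 21% of 18316 genes called higher and 25.2% lower. The median log2 change was 0.49 for the members and -0.06 for all genes tested. Actg1 had 540 and 485 TPM in Rnf12+/-, 769 and 1106 in XCastO129 and 1079 and 1051 in X129OCast, a log2 rise of 1.09 (SE 0.12, edgeR adjusted p = 6.04e-07). Rnps1 rose by 1.00, Ncoa4 by 0.93, Sinhcaf by 0.91 and Hspa8 by 0.85 on the log2 scale, all without overlap of the XO and Rnf12+/- libraries. Sinhcaf rose without a change of its Cast share past the test. Rps12 fell by 0.27 and Rpl34 fell by 0.20, calls that were lost at edgeR adjusted p = 0.107 for Rps12 without Rnf12+/- replicate 2, and for Rpl34 at 0.0989 and 0.0881 without either Rnf12+/- library and at 0.0852 without X129OCast replicate 2. This comparison and that of the deletion lines share the Rnf12+/- libraries.

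Between the XO lines, which also differ in Rnf12, Rnps1 was higher in X129OCast (159 and 160 TPM) than in XCastO129 (130 and 130 TPM), at a log2 difference of 0.34 (SE 0.08, edgeR adjusted p = 0.0197). It was the 1 member called higher and none was lower, beside 3.04 and 2.79% of all genes. Without 1 of the 4 libraries the difference stayed at 0.33 to 0.35 and the edgeR adjusted p rose to between 0.0556 (without XCastO129 replicate 1) and 0.119 (without X129OCast replicate 1), with 0.0700 without XCastO129 replicate 2 and 0.101 without X129OCast replicate 2. Between XX Rnf12+/- and XX wild type 0 members were called by edgeR and by DESeq2. Of 18316 genes, 220 were called higher and 284 lower by edgeR, and 258 and 276 by DESeq2. At an unadjusted p under 0.05 there was 1 member by each, beside 2311 genes by edgeR and 1822 by DESeq2. The rule asked for allelic counts in XX wild type, so the levels there are not fully independent of the choice of members.

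The deletion lines differed less from XX Rnf12+/-. For the 12 lines of the batch of 20, which cannot be told apart from their batch, 2 members were called higher and 2 lower in level, beside 11.3 and 16.7% of all genes. Lsm5 fell by 0.67 on the log2 scale (SE 0.11, edgeR adjusted p = 0.000172), with 108 and 131 TPM in Rnf12+/- and 111 and 95.3 TPM in deletion E of the same batch. The calls of Hspd1 (-0.31), Rnps1 (0.22) and Rps6 (0.19) were lost without Rnf12+/- replicate 1, where that of Rnps1 went to 0.11 and that of Rps6 to 0.11. The call of Hspd1 was also lost without Rnf12+/- replicate 2 or deletion A, and that of Rps6 was lost in 14 of 27 alternatives. In Cast share 4 members were called higher and 2 lower, beside 1.9 and 0.227%. Actg1 was lower, at 96.2 and 96.6% in Rnf12+/-, 95.4 and 95.5% in deletion E and 89.3 to 95.1% in the batch of 20 (log2 ratio -1.17, SE 0.15, edgeR adjusted p = 1.5e-07). In XX wild type, of the same batch as Rnf12+/-, its share was 94.2 and 95.1%, near the upper end of that range. Rps12 was higher, with a log2 ratio of 0.76 (SE 0.12, edgeR adjusted p = 7.52e-06). The higher shares of P4ha3, Rps6 and Rpl34 were lost without Rnf12+/- replicate 1, where the log2 ratio of P4ha3 went from 2.54 to 0.72 and that of Rps6 from 0.78 to 0.50. The lower share of Fau, -0.50, went to -0.27 without Rnf12+/- replicate 2 and was lost without deletion I clone 2 (-0.48).

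P4ha3 was the member whose level varied most. It had 243 and 217 TPM in I-TEL and 114 and 123 TPM in J, against 4.31 to 56.6 TPM (median 18.3) in the 16 libraries of the other 10 lines of that batch. The groups were apart, with a log2 difference of 3.11 (SE 0.23, edgeR adjusted p = 1.3e-08). XX wild type had 50.6 and 32.3 TPM and XX Rnf12+/- 30.8 and 20.5 TPM. In XO it was at 3.31, 19.3, 5.397 and 4.67 TPM. It fell by 1.64 against Rnf12+/- on the log2 scale (SE 0.41, edgeR adjusted p = 0.00292), a value of -2.54 without XCastO129 replicate 2, the library at 19.3 TPM, with edgeR adjusted p = 0.0517 when only these groups were fitted. The Cast share of P4ha3 was 99.2 to 99.6% in I-TEL and J and 88.0 to 100% in the other 10 lines. I-TEL and J came from the second Rnf12+/- line, and deletion and founder cannot be told apart.

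Among all members, 3 were called higher and 6 lower in level in I-TEL and J than in the other 10 lines, beside 17.3 and 14.3% of all genes. The log2 difference of Sinhcaf was -0.39 (SE 0.06, edgeR adjusted p = 3.95e-05), at 43.8 to 48.7 TPM against 45.8 to 71.0 TPM, groups that overlap at their edges. In Cast share 1 member was higher and 1 lower, beside 3.48 and 4.12%. Rps12 had 91.4 to 94.5% in I-TEL and J and 93.2 to 97.4% in the other lines, a log2 ratio of -0.66 (SE 0.11, edgeR adjusted p = 3.3e-06). Hspd1 was higher in share, with 85.5 to 96.2% against 75.8 to 89.9%, and this log2 difference of 1.095 was lost without I-TEL clone 2 (0.84) and J clone 2 (0.76).

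Fcgr3, Tbc1d4 and Pxt1, with P4ha3, were the members without a pseudogene match. Fcgr3 matched 1 coding gene, Fcgr2b, another receptor for IgG on chromosome 1, which had 80.3 and 75.5% Cast in XX wild type. Its level was 31.2 and 43.2 TPM in XX Rnf12+/-, 13.1 to 50.8 TPM in the 24 paired-read libraries and 4.79, 5.88, 6.23 and 3.65 TPM in XO, apart from all others. It fell by 2.73 on the log2 scale in XO (SE 0.23, edgeR adjusted p = 1.34e-08), on 16 to 34 allelic counts a library with 85.7 to 91.7% Cast. Tbc1d4 had 12.9 TPM as median of the 24 libraries and 16.5 to 20.1 TPM in XO, with a single high library at 35.6 TPM in deletion F clone 2. Its Cast share there was 91.5%. Pxt1 had 8.25 to 21.1 TPM in the 24 libraries and 14.9 to 19.0 TPM in XO.

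**Figure D5:**
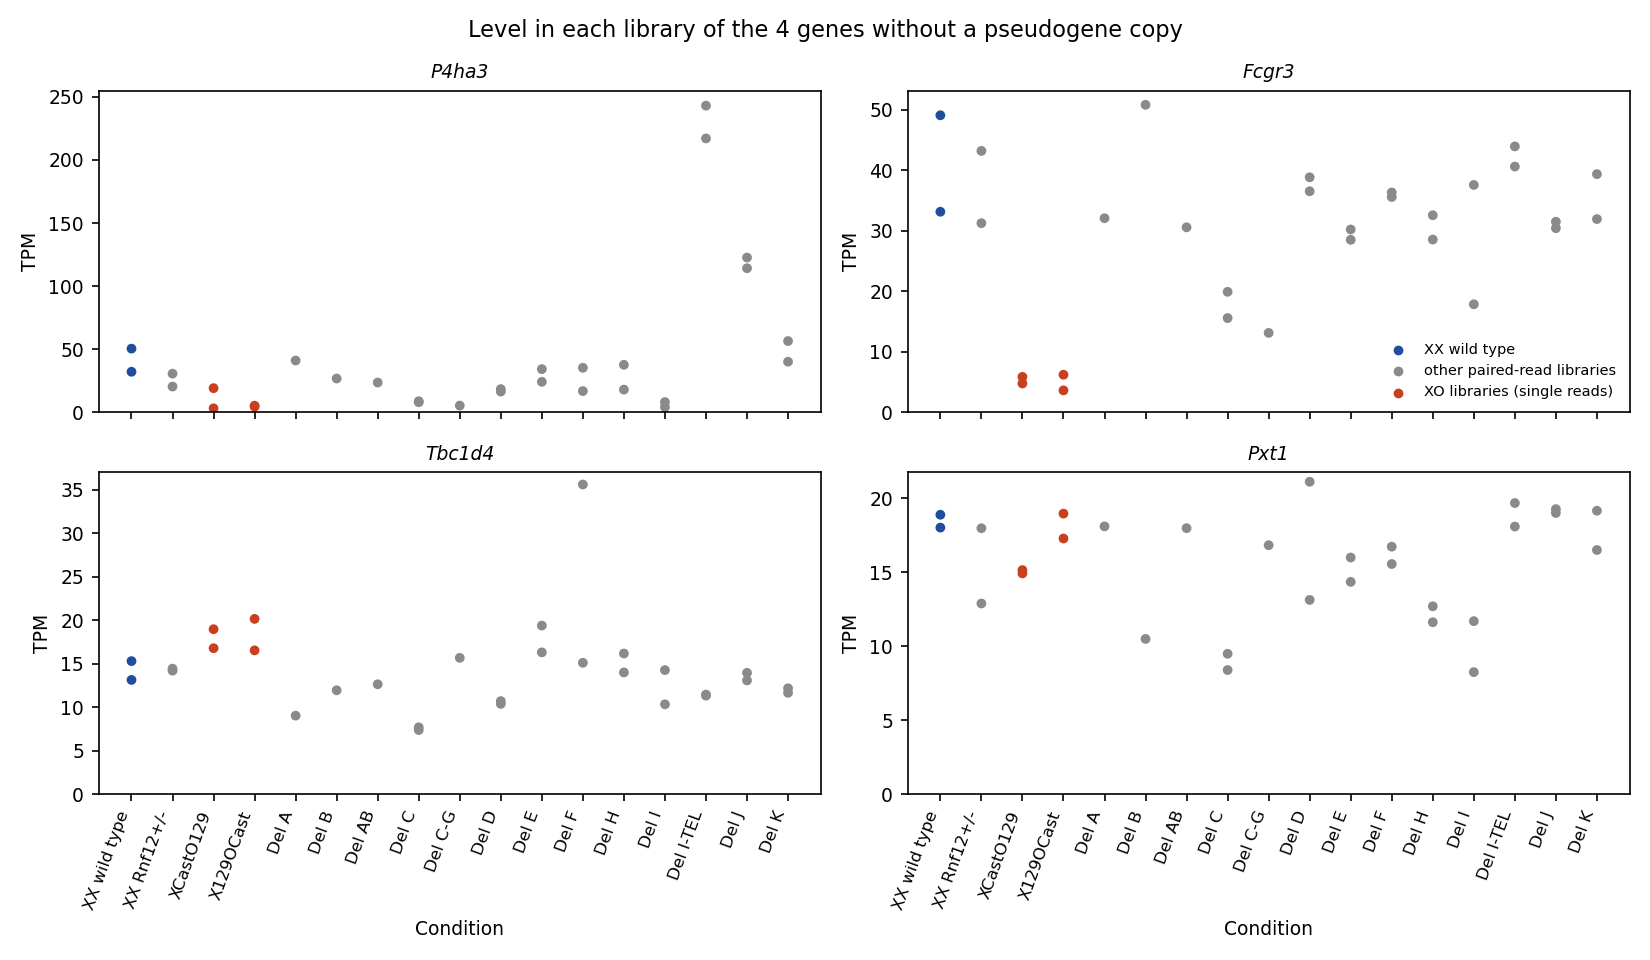
The y axis gives the level in TPM, from 0, and the x axis the 17 conditions; each point is 1 library, blue for XX wild type, grey for the other paired-read libraries and red for XO. P4ha3 is highest in deletions I-TEL and J, at 114 to 243 TPM, and Fcgr3 lowest in XO, at 3.65 to 6.23 TPM.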

How the data were processed

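RNA-seq counts of the 30 mESC libraries were analysed. The authors used Trim Galore 0.6.7 for trimming and HISAT2 2.2.1 for alignment against an mm10 genome with N at the SNPs of 129 and Cast, and then split them by allele with SNPsplit and counted exons per gene (the paper names featureCounts, the labels HTSeq 0.12.4). They deposited raw counts of all reads and of the reads of each allele. Members and gene lists were chosen with earlier results of these data known. Positions, types and exon lengths came from GENCODE M21 (GRCm38), which matched 55240 of 55421 genes. In 354 pairs of gene and library allelic counts exceeded the count of all reads and were kept.

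Levels were tested with edgeR 4.0.16 in R 4.3.3 (quasi-likelihood test) on all 30 libraries with 1 term per condition, TMM factors of autosomal genes and at least 10 counts in 2 libraries. Allele ratios were tested on the 129 and Cast counts of the 28 libraries other than XX wild type, with 1 term per library, 1 allele term per condition and at least 100 allelic counts per gene. P-values were adjusted over all genes tested (Benjamini-Hochberg, 0.05). Named members were those in the imprinted or functional lists, the 10 with the highest mean TPM in XX Rnf12+/-, the 6 lowest and 6 highest in pooled Cast share over the 28 other libraries, up to 4 called rises and 4 called falls by size in each contrast that went the same way in every library compared, the 5 genes on each side of the share threshold, and members within 1 Mb of another. Values of Mrpl23, Polr2l, Ublcp1, Hspe1 and Fcgr2b, and of calls beyond that rule, were chosen after they were seen. So were those of single pseudogenes and of the pseudogenes of single members. Copies were sought with BLAST 2.17.0 (megablast) between coding sequences and the transcripts of other genes. Python 3.11.15, pandas 2.3.3, scipy 1.17.1 and matplotlib 3.10.9 were used. Both tests were checked on simulated data. Allele shares there were equal before any change, so the check does not cover genes read as one-sidedly as the members. Alternatives were DESeq2 1.42.0, RLE factors, other filters, other allele scaling, the replicate number as a block, only the groups compared, and each library left out, where the allele fits kept the dispersion of the full fit. Fits of the allele ratio on only the groups compared, and matches at 95% identity or 100 bases, were added after seeing the data.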

Additional observations from a re-analysis of the deposited data

Results flagged for a closer look

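Cell lines differed in a direct comparison for 11 values between deletion lines and 1 between XO lines, all as log2 values from edgeR. These are the same comparisons as reported above. In I-TEL and J against the other 10 lines of the batch of 20, levels differed by 3.11 for P4ha3, 0.39 for Pxt1 and 0.23 for Hspd1, and by -0.48 for Gstp2, -0.39 for Sinhcaf, -0.32 for Sec61g, -0.16 for Rnps1, -0.15 for Rpl34 and -0.14 for Rps12. The Cast to 129 ratio differed there by 1.095 for Hspd1 and -0.66 for Rps12. In X129OCast against XCastO129, the level of Rnps1 differed by 0.34. Of the levels in I-TEL and J, those of P4ha3 and Sinhcaf stayed called without any 1 library.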

How the results depend on the processing

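Of 79 called values, 54 kept direction and call under every alternative run and 25 lost the call under at least 1; 0 reversed. The number of members was 57 at a share of 80%, 9 at 95% and 15 at 200 allelic counts or more. Without the filter on low counts, 1 member was called lower between XX Rnf12+/- and XX wild type against 0, and the call between the XO lines was a fall of another gene in place of the rise of Rnps1. On only the groups compared, 0 members were called between the XO lines against 1. With DESeq2, 2 allele ratios were called in the deletion lines against 6. The cause of these differences was not tested. Leaving out 1 library gave 1 to 7 called levels for the deletion lines against Rnf12+/- (1 without Rnf12+/- replicate 1, 2 without deletion A, 7 without deletion F clone 1), 2 to 10 for I-TEL and J (2 without I-TEL clone 2, 4 without J clone 1, 5 without J clone 2) and 0 to 1 for the XO lines. For allele ratios it gave 3 to 6 for the deletion lines (3 without Rnf12+/- replicate 1), 1 to 2 for I-TEL and J (1 without I-TEL clone 2 or J clone 2) and 0 to 1 for the XO lines (1 without XCastO129 replicate 2).

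The labels do not say that a replicate number marks a shared batch or day. Replicate differences of 13 groups correlated with r between -0.473 and 0.804 (median 0.0064), with 31 of 78 over 0.1, and the highest was that of XX wild type with Rnf12+/-, whose same-numbered libraries deviated together. With the replicate number as a block, called levels were 18 in XO, 5 in the deletion lines, 9 in I-TEL and J, 1 between the XO lines and 0 between Rnf12+/- and XX wild type. Called allele ratios were 24 in Rnf12+/-, 15 in XO, 6, 2 and 0. No call was lost. Depth limits the shares of genes with few allelic counts, which were down to 9 in a library for Pxt1 and 10 for Ublcp1.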
